A study of Mus musculus with 4 samples.

Results

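The genes described here are 36 components of Wnt signalling measured in C2C12 myoblasts: 11 Wnt ligands, 12 receptors (the Frizzled genes Fzd1 to Fzd10 and the co-receptors Lrp5 and Lrp6), 8 secreted antagonists (4 Sfrp genes, 3 Dkk genes and Wif1), the agonist Rspo3, and 4 nuclear factors and transcriptional targets (Axin2, Lef1, Tcf7 and Lbh). They were chosen by name, and no threshold on their values was used. The choice was still made with earlier results of these data known. The paper had already reported Lbh as upregulated in siFxr1 on these arrays. It also reported Lbh mRNA as higher by quantitative RT-PCR, with siFxr1 and with a second siRNA against another exon. The array carried 43 probes for them, out of 55681 probes and 36413 gene names. Where a gene had 2 probes, the brighter over the 4 arrays was used for counts and the other is given beside it.

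C2C12 is a clonal mouse myoblast line that divides in growth medium and fuses into myotubes when it differentiates. The cells were transfected, with a lipid reagent, with either an siRNA against exon 14 of Fxr1, which is part of every known isoform (siFxr1), or a control siRNA (siControl). Both conditions were therefore transfected cells of 1 line, and 1 siRNA sequence was used on the arrays. Each condition was measured once in experiment 1 and once in experiment 2 on one-colour Agilent arrays labelled with Cy3, which gives 2 arrays per condition and 4 in all. The siRNA sequence, shown because it defines the treated group, was as follows.
siFxr1, exon 14: gcaauccauacagcuuacuugaua

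Wnt ligands are secreted, lipid-modified glycoproteins. In the canonical branch, a ligand joins a Frizzled receptor and Lrp5 or Lrp6, the complex that degrades beta-catenin is inhibited, and beta-catenin enters the nucleus to activate transcription with factors of the TCF/LEF family, such as Lef1 and Tcf7. Sfrp and Wif1 proteins bind the ligands outside the cell, Dkk proteins bind the co-receptors, and R-spondins keep Frizzled receptors at the cell surface. In skeletal muscle, Wnt signalling is known from the induction of the myogenic factors in the embryo and from the regulation of satellite cells in the adult.

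The probe of Fxr1 was lower in siFxr1 in both experiments, by 3.69 and 2.93 on the log2 scale, and its second probe by 3.84 and 3.38, in the direction of the labels. Throughout, a pair of values is given in the order experiment 1, experiment 2, and levels are quantile-normalized log2 signals. The experiments differed more than the conditions. The correlation over probes was 0.985 and 0.979 within an experiment, and 0.966 between the siFxr1 arrays and 0.961 between the siControl arrays. The arrays of an experiment also shared a slide according to the labels, so experiment and slide cannot be told apart. Of the markers of myoblasts, 5 of 6 (among them Myod1, Des and Cdh15) were well above background on all 4 arrays, while Myf5 was not well above background on any. The log2 of the summed signal of 8 myotube markers was 18.18 in siFxr1 and 18.49 in siControl in experiment 1, against 16.04 and 16.23 in experiment 2, and 7 of the 8, all but Ttn, were higher in experiment 1 in both conditions. In bulk RNA, fewer cells of a type and less RNA per cell cannot be told apart. The defining markers Ptprc of blood cells, Epcam and Cdh1 of epithelium, Gfap of astrocytes and Adipoq of adipocytes were not well above background on any array, whereas the endothelial markers Kdr and Cdh5, the blood markers Cd3e and Itgam, the neural marker Snap25 and the adipocyte marker Fabp4 each had a probe above background on all 4. Fabp4 was at 8.36 and 10.13 in siFxr1 and 7.93 and 8.46 in siControl. The keratins Krt8 and Krt18 were above background on 3 arrays each, Krt8 at 5.96 and 6.23 in siFxr1 and 5.27 and 5.37 in siControl, and Krt18 at 7.71 and 5.22 and at 6.09 and 2.85. Both keratins and Fabp4 were higher in siFxr1 in each experiment, and their part in the differences below was not tested. RNA integrity was rated 9 in 3 samples and 8 in the siFxr1 sample of experiment 1.

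Most of the receptors were measured in these myoblasts and most of the antagonists were not. By the brightest probe, 22 members were well above background on all 4 arrays: 5 ligands, 11 receptors, 2 antagonists, Rspo3, and Lbh, Lef1 and Tcf7. A further 5 (Wnt5a, Wnt5b, Wnt6, Dkk2 and Axin2) were so on 1 to 3 arrays. The other 9 (Wnt2, Wnt7a, Wnt7b, Fzd10, Sfrp1, Sfrp5, Dkk1, Dkk3 and Wif1) were above background on none, with signals between 2.53 and 5.38, and no change of theirs could be measured. The plot of the members by array shows these levels.

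**Figure D1:**
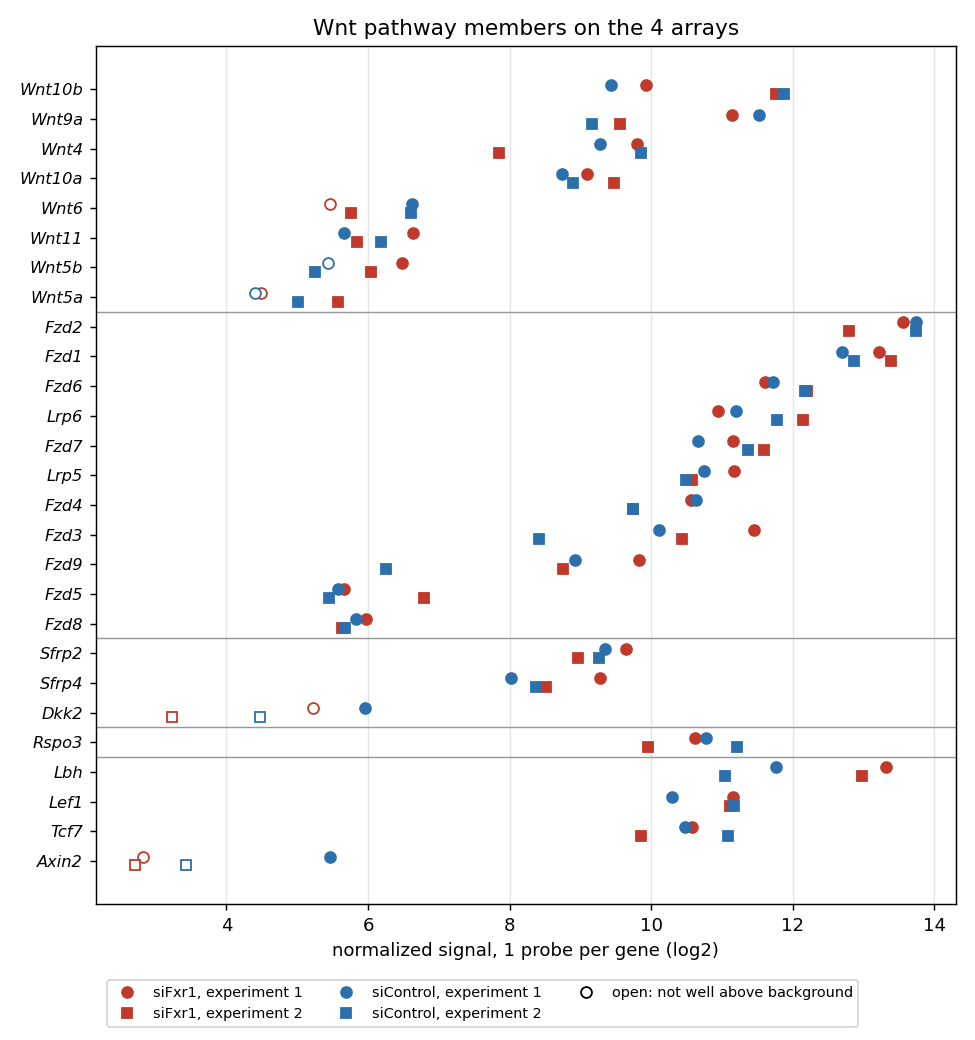
Normalized log2 signal (x axis) of the 27 members that were well above background on at least 1 of the 4 arrays, by role and then by signal, with siFxr1 in red, siControl in blue, circles for experiment 1 and squares for experiment 2. Open symbols were not well above background. Both red points lie right of both blue points for Lbh and Fzd3, whereas for Wnt9a and Wnt10b the 2 circles lie apart from the 2 squares.

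In the comparison of siFxr1 with siControl, no member passed the test. The B value, the log odds that a probe changed, was below 0 for all 36 members (limma, condition as the only term), and 0% of all 55681 probes had a B value above 0. The lowest limma adjusted p of a member was 0.950. The silenced gene Fxr1 did not pass either, with a B value of -4.33 and a limma adjusted p of 0.950. A member without a call is therefore not shown to be unchanged. The paper, which selected transcripts by a B value above 0, did report changed transcripts on these arrays, Lbh among them. At an unadjusted p under 0.05 there were 2764 probes, and 4 members (Fzd1, Lbh, Wnt5b and Wnt6). With 2 arrays per condition, a two-sided exact permutation test of 1 gene cannot go below p = 0.333, and the methods call the 2 experiments biological replicates. The differences below are therefore described by their size in each experiment. The median log2 fold change of the 36 members was 0.054, against 0.0009 over all named genes. The 2 experiments gave the same direction in 23 of the 36 members, 63.9% (siFxr1 was higher in 11 and lower in 12), against 59.6% of all named genes. Of the 12 lower members, Wnt2, Wnt7a, Fzd10, Sfrp1, Dkk1 and Dkk3 were above background on no array, and Dkk2 and Axin2 on 1 each. The 23 include these genes, whose directions rest largely on signal not above background. Of the 22 members above background on all 4 arrays, siFxr1 was higher in 9, lower in 3 and opposite between experiments in 10. Over all 36413 named genes, detected or not, it was higher in 9269, lower in 12432 and opposite in 14649. The split over genes detected on all 4 arrays is not given, so the 9 and 3 are not read as a trait of the members.

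Of the members, 2 were at least 2-fold higher in siFxr1 in both experiments, Lbh and Fzd3, where 1.65% of all named genes were. None was at least 2-fold lower in both experiments by its brightest probe, where 1.11% of all named genes were. Both siFxr1 arrays were above both siControl arrays for 7 members (Fzd1, Fzd3, Fzd5, Lbh, Sfrp4, Wnt10a and Wnt5b), against 13.8% of all named genes, and below both for 10 members, against 21.4%. Of those 10, Fzd2 and Rspo3 alone had full detection on the 4 arrays. The plot of the difference in experiment 2 against that in experiment 1 places the members among all genes.

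**Figure D2:**
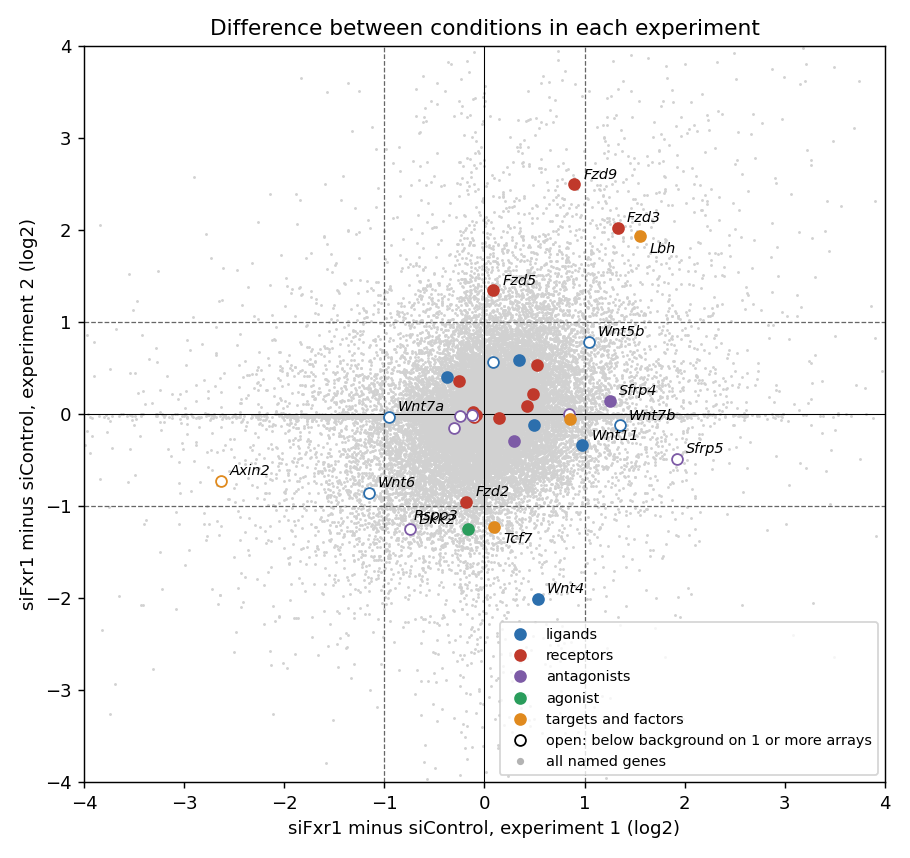
Log2 difference of siFxr1 minus siControl in experiment 1 (x axis) and experiment 2 (y axis), with 1 probe per gene, members coloured by role and all 36413 named genes in grey, of which 228 lie outside the axes. Filled members were well above background on all 4 arrays and dashed lines mark 2-fold. Fzd3 and Lbh are the members in the upper right corner beyond both lines, Fzd9 is just left of it, and no member lies beyond both lines in the lower left.

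The 2 ligands with the brightest probes, Wnt10b and Wnt9a, differed by experiment more than by condition. Wnt10b, a canonical ligand that is known to restrain adipogenesis, had signals of 9.92 and 11.76 in siFxr1 and of 9.43 and 11.88 in siControl. Both conditions were thus lower in experiment 1, by 2.15 on the log2 scale (SE 0.26, limma with condition and experiment, adjusted p = 0.110). The condition difference of 0.19 lay within the replicate spread (SE 1.21, or 0.26 with the experiment as a replicate block). Wnt9a, a ligand with roles in joint formation and haematopoietic stem cell development, went the other way. Its signals were 11.15 and 9.56 in siFxr1 and 11.52 and 9.17 in siControl. They were 1.97 higher in experiment 1 (SE 0.29, limma with condition and experiment, adjusted p = 0.121). They were 0.01 higher in siFxr1 (SE 1.12, or 0.29 with the replicate block). For both genes the experiments did not overlap while the conditions did.

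Wnt5b and Wnt6 had opposite differences that were alike in both experiments. Neither met the rule for showing values per sample, and both are described with their values known. Wnt5b, mostly known as a non-canonical ligand, had signals of 6.48 and 6.04 in siFxr1 and of 5.44 and 5.25 in siControl, and was 1.04 and 0.79 higher in siFxr1 (log2 fold change 0.92, SE 0.24). Wnt6, an ectodermal ligand that acts on the epithelial organisation of somites in the embryo, had signals of 5.46 and 5.76 in siFxr1 and of 6.62 and 6.61 in siControl, and was 1.16 and 0.85 lower in siFxr1, on average 2.01-fold (SE 0.19 on the log2 scale). The conditions did not overlap for either gene. Both probes were dim: that of Wnt5b was not well above background in siControl of experiment 1, and that of Wnt6 in siFxr1 of experiment 1. Without background correction the log2 fold changes were 0.45 for Wnt5b and -0.44 for Wnt6.

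Of the other measured ligands, Wnt10a alone differed without overlap. Wnt10a, a canonical ligand of skin and tooth development, was 0.35 and 0.58 higher in siFxr1 with no overlap, at 9.09 and 9.47 against 8.74 and 8.89. Wnt4, known for its role in kidney and female reproductive tract development, differed by 0.53 in experiment 1 and by -2.01 in experiment 2. That difference came from the siFxr1 array of experiment 2, at 7.86, with the other 3 arrays between 9.27 and 9.86, and without it the log2 fold change was 0.24. Wnt11, a non-canonical ligand of convergent extension movements, was 0.98 higher and then 0.34 lower in siFxr1. Wnt5a, the best known non-canonical ligand, was above background only in experiment 2, where siFxr1 was 0.57 higher. The probes of Wnt2, Wnt7a and Wnt7b, of which Wnt7a is known for expanding satellite cells, were not well above background on any array.

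Of the receptors, Fzd3 and Fzd9 were higher in siFxr1 and also higher in experiment 1. Fzd3, a Frizzled known for its part in axon guidance and planar cell polarity, was read by 1 probe (chr14:65854084-65854142 of mm9, minus strand). It had signals of 11.45 and 10.44 in siFxr1 and of 10.12 and 8.42 in siControl. All siFxr1 values lay above all siControl values, though the lowest of siFxr1 was 0.32 above the highest of siControl. The difference was 1.33 in experiment 1 and 2.03 in experiment 2 (2.52-fold and 4.07-fold), with a log2 fold change of 1.68 (SE 0.79, or 0.27 with the experiment as a replicate block). Leaving out siControl of experiment 2 gave 0.83 and leaving out siControl of experiment 1 gave 2.53. Fzd3 was 1.36 higher in experiment 1 (SE 0.27, limma adjusted p = 0.153).

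Fzd9, a Frizzled studied in bone and hippocampus, had signals of 9.82 and 8.75 in siFxr1 and of 8.93 and 6.25 in siControl, and was chosen for description after its values were seen. It was 0.90 and 2.50 higher in siFxr1, just under 2-fold in experiment 1. The log2 fold change was 1.70 (SE 1.14, or 0.49 with the experiment as a replicate block). The conditions overlapped, because siControl of experiment 1 was above siFxr1 of experiment 2. The value was 1.07 without background correction and 0.36 without siControl of experiment 2. Of the members outside the pair that reached 2-fold in both experiments, Fzd9 came nearest to it on the high side.

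The receptors with the brightest probes, Fzd2 and Fzd1, differed in opposite directions. Fzd1, a receptor of canonical ligands, had signals of 13.22 and 13.39 in siFxr1 and of 12.69 and 12.86 in siControl. The difference was 0.53 in each experiment (SE 0.17), larger than the SD of 0.12 in either condition. Fzd2, a receptor through which both branches of the pathway are known to signal, had signals of 13.56 and 12.79 in siFxr1 and of 13.75 and 13.74 in siControl. It was 0.18 and 0.95 lower in siFxr1, with no overlap between conditions (log2 fold change -0.57, SE 0.34). Its second probe, 1432 bases further along chromosome 11, had signals of 6.44 and 4.71 in siFxr1 and of 7.46 and 7.44 in siControl, and was 1.02 and 2.73 lower (log2 fold change -1.87, SE 0.69). Both Fzd2 probes were lower in siFxr1 in both experiments, but only the dimmer was so by 2-fold in both. The first 30 bases of each 60-base probe are shown because the 2 probes gave values of different size.
Fzd2, brighter probe (chr11:102467613-102467672, mm9, plus strand): tcacagtctacatgatcaaatacctcatga
Fzd2, dimmer probe (chr11:102469045-102469104, mm9, plus strand): cgtgacattctatatcataagatattgata

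Of the remaining receptors, Fzd5 had the largest difference, by 1 of its 2 probes. Lrp5 and Lrp6, the co-receptors, differed by 0.26 (SE 0.30) and 0.06 (SE 0.54). The second Lrp6 probe was 0.49 and 0.34 lower in siFxr1 (log2 fold change -0.42, SE 0.72, or 0.20 with the replicate block). The differences were smaller in Fzd4, Fzd6 and Fzd8, at -0.04, -0.04 and 0.05. Fzd4, the receptor for the retinal ligand norrin, was nearly the same in the 2 conditions, at 10.56 and 9.74 in siFxr1 and 10.64 and 9.75 in siControl, and was 0.86 higher in experiment 1 (SE 0.19). Fzd7, known as the receptor of Wnt7a on satellite cells, was 0.49 and 0.22 higher in siFxr1 by its brighter probe and 0.15 higher and 0.28 lower by the other. Its probes also went opposite ways between experiments, the brighter 0.57 lower in experiment 1 and the other 1.31 higher, so this array gives no single direction for Fzd7. Fzd5, a receptor with a role in the developing eye and gut, was 0.09 and 1.34 higher by the brighter probe with no overlap (log2 fold change 0.72, SE 0.47) and 0.19 higher and 0.03 lower by the other. The probe of Fzd10 was not well above background on any array.

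Few of the secreted antagonists were measured. Sfrp2 and Sfrp4, secreted Frizzled-related proteins that bind Wnt ligands, were the only 2 of 8 above background on all 4 arrays. Sfrp2 had signals of 9.65 and 8.96 in siFxr1 and of 9.35 and 9.26 in siControl, and differed by 0.30 in experiment 1 and -0.29 in experiment 2 (SE 0.31 for their mean). Sfrp4 had signals of 9.28 and 8.51 in siFxr1 and of 8.02 and 8.37 in siControl. It was 1.25 and 0.15 higher in siFxr1 with no overlap (log2 fold change 0.70, SE 0.36). Dkk2, which binds the co-receptors, was well above background only in siControl of experiment 1, at 5.96. Its signal was 4.48 in siControl of experiment 2 and 5.22 and 3.22 in siFxr1 (limma adjusted p = 0.975). The mean of siControl was 1.36-fold higher than the detection limit of the siFxr1 arrays. That mean includes the siControl value of experiment 2, which was not well above background, so the fold is not a lower bound. That bound did not hold under other settings, since the log2 difference was -0.24 with normexp correction, -0.28 without background correction and -0.0030 without siFxr1 of experiment 2. Dkk1 and Dkk3, Sfrp1 and Sfrp5, and Wif1 were not well above background on any array.

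Rspo3, the R-spondin in the set, was lower in siFxr1, mostly in experiment 2. Its signals were 10.61 and 9.96 in siFxr1 and 10.78 and 11.21 in siControl, a difference of -0.16 and -1.25 with no overlap between conditions (log2 fold change -0.71, SE 0.34). The value ranged from -1.03 to -0.38 with each array left out.

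Among the nuclear factors and targets, Lbh was higher in siFxr1 by both of its probes. Lbh encodes a small nuclear protein described as a Wnt target in limb and mammary epithelium. Its brighter probe (chr17:73288852-73288911 of mm9, plus strand) had signals of 13.32 and 12.97 in siFxr1 and of 11.76 and 11.04 in siControl. It was 1.56 and 1.93 higher in siFxr1 (2.95-fold and 3.81-fold), or 1.74 over both (SE 0.35 in limma, adjusted p = 0.950). The second probe had signals of 9.54 and 9.01 in siFxr1 and of 8.13 and 8.42 in siControl, and was 1.40 and 0.59 higher (log2 fold change 1.00, SE 0.28). Both probes showed no overlap between conditions, and only the brighter reached 2-fold in both experiments. The first 30 bases of the probes, which lie 1910 bases apart, are shown beside their values for that reason.
Lbh, brighter probe: agaagagaatgagccacagtcattgtgaaa
Lbh, dimmer probe: ttgccgtgtgatgggatgtgcttgtaaatc

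Axin2, a scaffold of the degradation complex and the most widely used transcriptional reporter of canonical signalling, was close to background. It was well above background only in siControl of experiment 1, at 5.46, with 3.43 in siControl of experiment 2 and 2.83 and 2.71 in siFxr1. The mean of siControl was below the detection limit of the siFxr1 arrays, so no fold is given. The second Axin2 probe was not well above background on any array. Lef1, a TCF/LEF factor, had signals of 11.15 and 11.12 in siFxr1 and of 10.29 and 11.17 in siControl, 0.86 higher and 0.05 lower (log2 fold change 0.40, SE 0.37). Tcf7, a factor of the same family, had signals of 10.58 and 9.86 in siFxr1 and of 10.48 and 11.09 in siControl, 0.09 higher and 1.22 lower (log2 fold change -0.57, SE 0.39). Its second probe gave 0.10 higher and 1.49 lower. Lef1 and Tcf7 thus differed in 1 experiment each, in opposite directions, and their conditions overlapped.

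**Figure D3:**
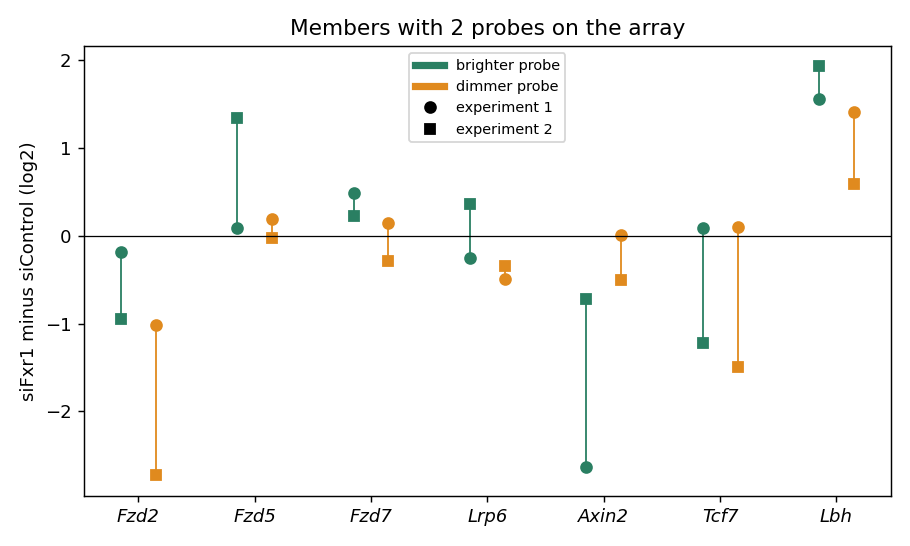
Log2 difference of siFxr1 minus siControl (y axis) in experiment 1 (circles) and experiment 2 (squares) for the 7 members with 2 probes, the brighter in green and the dimmer in orange. All 4 points lie above 0 for Lbh and below 0 for Fzd2, while the 2 probes of Fzd5, Fzd7, Lrp6 and Axin2 differ in direction in 1 experiment.

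Lbh, Fzd3 and Wnt6 were called in 1 or both of 2 other fits of the same arrays. In 1 of them the 4 ratios of a siFxr1 over a siControl array, which share arrays and so are not independent, were the observations. There Lbh had a B value of 0.08, just above 0, and Wnt6 one of 1.07. Lbh was called as higher, as were 1.03% of the probes, and Wnt6 as lower, as were 0.961%. With the experiment as a replicate block and the median signal minus background, Lbh and Fzd3 had B values of 1.91 and 1.08 and were higher, as were 0.384% of the probes. Their log2 fold changes in that fit were 1.77 (SE 0.28) and 1.62 (SE 0.29), with limma adjusted p of 0.044 and 0.064. With the replicate block on the signal used here, no member had a B value above 0. The plot of other signal processing shows that Lbh and Fzd3 kept the size of their differences. Those of Wnt5b, Wnt6 and Fzd9 were smaller without background subtraction. They were also smaller with normexp correction, at 0.43, -0.55 and 1.16, and with the median minus background, at 0.69, -0.78 and 1.32.

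**Figure D4:**
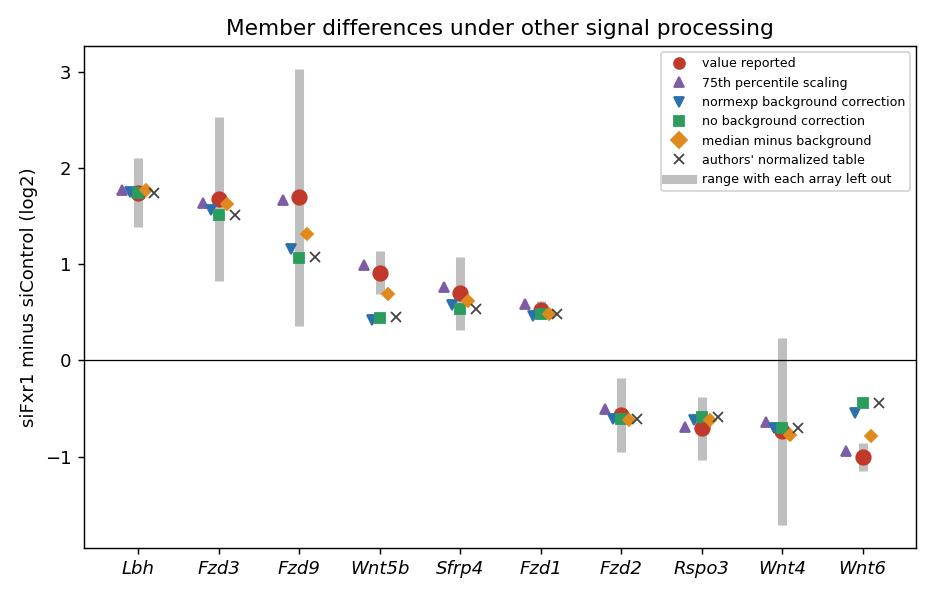
Log2 fold change of siFxr1 over siControl (y axis) of 10 members as reported (red circles), under 5 other ways of processing the signal (smaller symbols) and over the range with each array left out (grey bars). Lbh stays between 1.74 and 1.77 under the other signal processing and Wnt6 moves from -1.005 to -0.44.

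Of the 22 members above background on all 4 arrays, 11 differed more between experiments than between conditions, against 63.9% of the 17819 genes detected likewise. Their median absolute difference was 0.47 between experiments and 0.44 between conditions, and that of the 17819 genes was 0.42 and 0.26. By size, 5 of the 36 members differed at least 2-fold between experiments in the same direction in both conditions, against 8.83% of all named genes: Wnt9a, Fzd3, Fzd9 and Dkk2 were higher in experiment 1 and Wnt10b was lower. None differed 4-fold in both conditions. No member had an adjusted p under 0.05 between experiments in the limma fit with condition and experiment (0% of all probes had), and 8 had an unadjusted p under 0.05, among 11172 probes. No member had a B value above 0, against 1.19% of all probes. This result turned on the processing, because the 6 other ways of preparing the signal called 4 to 7 members at an adjusted p under 0.05, beside 6.62% to 22.5% of the probes fitted, and Wnt9a, Wnt10b and Fzd3 were among them each time. Scaling to the 75th percentile moved the median difference between experiments of all named genes from 0.03 to 0.23, and Wnt9a, Fzd3, Fzd9 and Wnt10b kept their directions there. The myotube markers given above also differed between experiments, and their part in the Wnt differences was not tested.

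**Figure D5:**
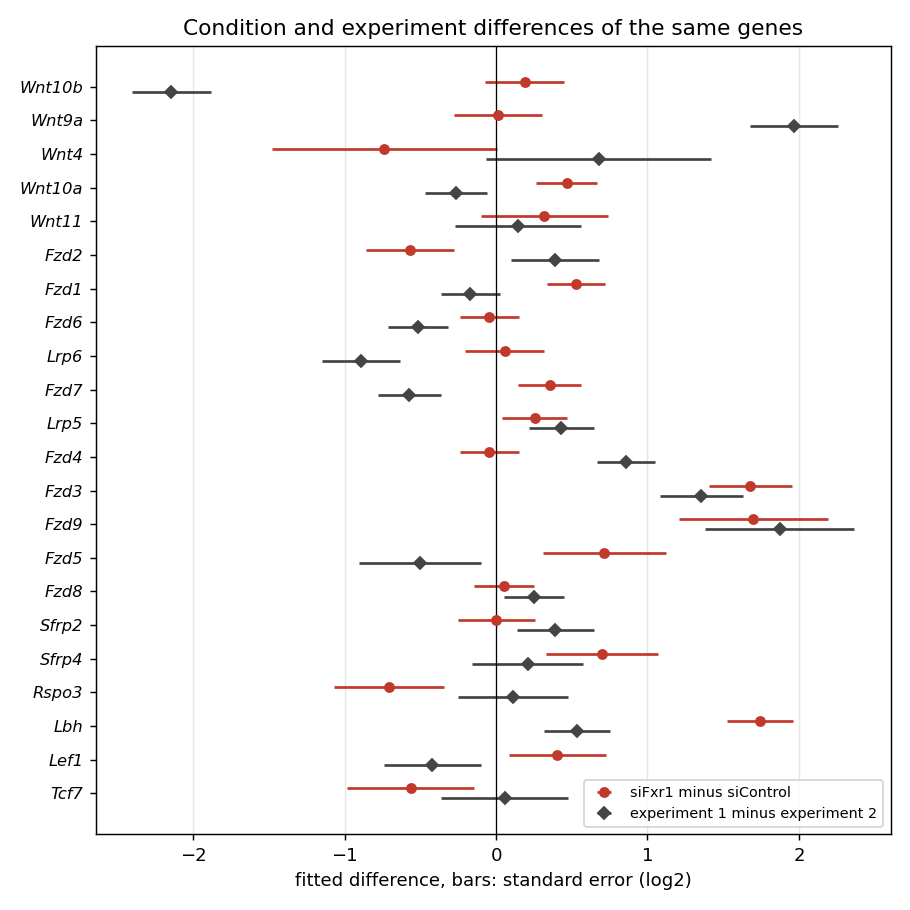
Fitted log2 difference (x axis) between conditions (red circles) and between experiments (dark diamonds) of the 22 members well above background on all 4 arrays, with bars for the standard error of the limma fit with both terms. Wnt10b and Wnt9a lie far from 0 by experiment and near 0 by condition, Lbh differs more by condition than by experiment, and Fzd3 and Fzd9 are on the high side by both.

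No other gene of the pathway passed the test, which Fxr1 itself did not pass. A wider list of 88 further genes on the array (other ligands and antagonists, secretion and receptor partners, cytoplasmic and nuclear components, and known targets) had 58 above background on all 4 arrays by the brightest probe. Of the 88, 0 had a B value above 0, as did 0% of all probes. In both experiments 25 were higher and 25 lower in siFxr1, against 9269 and 12432 of the 36413 named genes. The median log2 fold change was 0.022. Those at least 2-fold higher in both experiments were Celsr1, a planar cell polarity cadherin, and Lgr6, a receptor for R-spondins. Of all named genes, 1.65% were. Celsr1 had signals of 7.60 and 9.34 in siFxr1 and of 6.35 and 7.80 in siControl. It was 1.26 and 1.54 higher in siFxr1 (log2 fold change 1.40, SE 0.90, or 0.21 with the experiment as a replicate block). Its conditions overlapped across the experiments, between which it was 1.60 lower in experiment 1. Lgr6 had signals of 7.94 and 8.28 against 6.70 and 7.22, without overlap (1.15, SE 0.28, or 0.20 with the block). None was at least 2-fold lower in both, where 1.11% of all named genes were. The next by size was Fbxw11, an F-box protein that binds phosphorylated beta-catenin (1.03, SE 0.86, or 0.50 with the block). That value is from the brighter of its 2 probes, where the difference was 0.22 in experiment 1 and 1.83 in experiment 2. The other probe is not given here. Then came Fst, the activin antagonist follistatin (0.97, SE 0.71, or 0.23 with the block). Btrc, the paralog of Fbxw11, followed (-0.80, SE 0.34, or 0.35 with the block), and its second probe gave 0.03. In the fit of the 4 ratios, Cd44, an adhesion receptor and Wnt target, and Dkk4 had B values above 0. Both were called as higher there, as were 1.03% of the probes. Dkk4 was not well above background on any array.

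The RefSeq table of promoters (build GRCm38.p6) held 30 promoters of 23 of the 36 members. The 250 bases before each start were searched for the TCF/LEF motif CTTTGAT on both strands. It was present in 2 of the 30 (6.67%), against 3.21% of all 32851 promoters, namely in 1 promoter each of Wnt5b and Wnt11, where it lies 71 and 51 bases before the start. The promoters of Lbh and Wnt6, which had B values above 0 in the fit of the ratios, held none. A promoter of Wnt5b, the ligand with the opposite difference to Wnt6, held 1. These 3 are shown 5' to 3' on the strand of the gene, with a motif in capitals.
Lbh (chr17:72918055-72918304, GRCm38.p6, plus strand): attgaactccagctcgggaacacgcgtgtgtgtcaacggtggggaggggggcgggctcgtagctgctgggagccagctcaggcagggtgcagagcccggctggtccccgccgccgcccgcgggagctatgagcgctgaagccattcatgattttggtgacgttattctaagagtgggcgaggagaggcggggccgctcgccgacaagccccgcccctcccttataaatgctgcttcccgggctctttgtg
Wnt6 (chr1:74771642-74771891, GRCm38.p6, plus strand): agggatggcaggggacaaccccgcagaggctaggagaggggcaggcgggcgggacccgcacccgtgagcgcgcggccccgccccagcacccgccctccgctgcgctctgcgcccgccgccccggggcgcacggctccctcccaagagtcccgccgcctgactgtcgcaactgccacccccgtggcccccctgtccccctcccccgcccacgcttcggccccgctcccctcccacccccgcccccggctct
Wnt5b (chr6:119449387-119449636, GRCm38.p6, minus strand): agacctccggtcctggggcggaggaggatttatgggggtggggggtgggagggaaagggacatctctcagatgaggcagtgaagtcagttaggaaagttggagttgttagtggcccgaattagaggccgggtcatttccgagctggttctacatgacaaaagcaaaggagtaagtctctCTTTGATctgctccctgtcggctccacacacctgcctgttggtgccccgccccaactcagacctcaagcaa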

How the data were processed

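RNA of C2C12 cells was measured on 4 arrays, 2 per condition, grouped by the labels. The authors deposited spot intensities from Agilent Feature Extraction 10.7.3.1, marks for spots well above background and for outliers, and a table of normalized intensities, which ranks spots as the median signal does. The log2 of the software's processed signal was quantile-normalized over 59305 non-control spots, outliers were then dropped, and spots were averaged per probe (R 4.3.3, limma 3.58.1). Condition was the only term of the model (lmFit and eBayes), and a probe was called at a B value above 0. A probe was well above background on an array if a share of 0.5 or more of its spots had that mark. On the 4 arrays, 45.4% to 52.9% of probes did, and no spot was saturated. The number of arrays limits the precision. Folds over the detection limit set the brighter mean against, per array, the higher of the lowest signal well above background and the probe's own.

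Experiment numbers come from the labels and mark a shared slide, so they pair the samples, and the 2 samples of an experiment deviated from their condition means together (correlation 0.741). The paired fit, with the experiment as a replicate block, was an alternative, and differences between experiments came from that fit. Unless stated, the SE of a condition difference is of the fit without the block, so it includes the difference between experiments. The fits were tested on simulated data. Alternatives were scaling to the 75th percentile, normexp with offset 50, the uncorrected median signal, that signal minus background, the authors' table, a filter to probes well above background on every array, a fit of the 4 ratios, a trended variance prior, and each array left out. Members, lists and tests were chosen with earlier results of these data known. The rule for values per sample covered members at least 2-fold apart in both experiments and the 2 brightest of each role. Wnt5b, Wnt6, Wnt10a, Fzd4, Fzd9, Dkk2, Axin2 and Tcf7 fall outside it and are shown with their values known. The other measured members are given to account for all of them. Other pathway genes are the 5 largest differences among probes above background on all arrays. Amer1 is named Fam123b on the array. Probe positions are from the array files (mm9). Promoters are those of RefSeq on GRCm38.p6.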

Additional observations from a re-analysis of the deposited data

How the results depend on the processing

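The 2 members at least 2-fold higher in siFxr1 in both experiments, Lbh and Fzd3, were the same 2 genes in all 6 other ways of preparing the signal. The count at least 2-fold lower in both went from 0 to 1 with scaling to the 75th percentile, by Axin2, which was not well above background in siFxr1. The number of members with a B value above 0 was 0 with the replicate block, 2 with the replicate block on the median signal minus background, and 2 with the 4 ratios as observations, where 2 of the other pathway genes had one too. It was 0 in the remaining alternatives, leaving out any array included. In the same 2 fits the B value of Fxr1 was above 0, with log2 fold changes of -3.17 and -3.31, and it was below 0 in the others. Over the 4 fits that left out an array, the value of Fxr1 lay between -3.62 and -3.00. The median log2 fold change of the members was 0.22 over those well above background on all 4 arrays, and between -0.0295 and 0.19 with an array left out. The number of members that differed between experiments at an adjusted p under 0.05 was 4 with scaling to the 75th percentile, 4 with normexp correction, 6 with no background correction, 4 with the median minus background, 7 with the authors' table, 6 among the probes that passed the background mark on every array, and 0 with experiment as the only term. The causes were not tested.

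The sign of the log2 fold change held in every way of preparing the signal for 26 of 36 members, and with each array left out as well for 18. Of these 18, only 11 were well above background on every array. The rest include Wnt7a, Wnt7b and Dkk3, which were above background on no array, so their signs are not read as differences. The share over all named genes is not given, so these counts are not read as a trait of the members. The 2 arrays per condition limit every comparison. With an array left out, a condition with 1 array is assumed to vary like the other. The 14 members not well above background on every array are limited by their signal.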
